A study of Apis mellifera with 24 samples.

Results

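Vitellogenin (Vg), the honey bee egg-yolk precursor protein, was followed as a single gene in the brains of 24 worker bees. It was chosen by its identifier, GB49544 of the honey bee official gene set, a rule that uses no measured value, although earlier results of these data were known when it was set. It is 1 of 15314 identifiers in the expression table and 1 of the 9316 that passed the filter on low counts. It is also 1 of 3532 genes in the allele table of reproductive bees and 1 of 3572 in that of sterile bees. The tables give identifiers only, so the name vitellogenin rests on the identifier under which the gene was chosen.

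Vitellogenin is a large lipid-carrying glycoprotein. The insect fat body, an organ comparable to liver and adipose tissue, makes most of it and releases it into the haemolymph, from which growing oocytes take it up through a receptor. In honey bee workers it also serves as a protein store for nursing. It is known to act against juvenile hormone, to bind zinc, to protect against oxidative damage and to delay the onset of foraging. Drones are haploid and pass the same genome to all their daughters, while a queen is diploid and passes either of her copies of a gene to each daughter.

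The workers were hybrids of Africanized (Afr) and European (Eur) parents, and both directions of the cross were made (mother written first). They lived for about 18 days in colonies that had no queen, in which some workers activate their ovaries. Lineages L875 and L882 had a European mother and an African father (Eur x Afr). The other lineages, L888 and L894, had an African mother and a European father (Afr x Eur). Each lineage gave 3 reproductive and 3 sterile bees. Block A held L875 and L888, block B held L882 and L894, and the labels do not say what a block was. Each direction was represented by 1 family per block, so a family effect cannot be told apart from that of direction or block. Each library is the whole brain of 1 bee, in which fewer cells of a type and less RNA per cell cannot be told apart.

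Libraries held 5.19 M to 16.7 M expected counts, read here as estimated read counts per gene. The name was inferred from values that are not whole. The 10 most abundant genes took between 9.38% and 71.2% of the counts of a bee, 29.5% ± 16.8 in reproductive and 46.3% ± 17.1 in sterile bees (SD, n = 12 each). Levels are therefore given as CPM (counts of the gene per 1 M counts of the library) after scaling with TMM factors, which limit the pull of a few abundant genes. In the headers of the allele tables, A goes with reproductive and I with sterile bees in L875, L882 and L894, whereas in L888 the reproductive bees carry I and the sterile bees A. The I bees of L888 stand in the allele table of reproductive bees and the A bees in that of sterile bees, as labelled. Status was taken from the sample labels. The level, the paternal share and the ratio of allele reads to expected counts are compared between statuses with and without L888. The status differences in allele reads alone, with the abundance share as covariate and with library totals alone used all lineages, L888 included, and were not recomputed without it. The labelled tissue was not checked against marker genes, because 0 of the 15314 identifiers occur in the RefSeq gene table used.

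Vitellogenin was detected in every brain, and its level varied widely between sisters of the same status. It ran from 60.1 CPM in L875 Sterile 3 to 5229.8 CPM in L882 Reproductive 1, an 87.0-fold range. The SD within groups of 3 sisters of the same status was 1.45 on the log2 CPM scale. This was larger than that of 98.7% of the 9316 genes, whose median was 0.38, and larger than that of 97.9% of the 1329 genes with a mean of at least 1000 counts.

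In L875 the 3 reproductive brains had 2036, 2157 and 394 CPM, and the 3 sterile brains had 925, 171 and 60.1 CPM. The groups overlapped, with 2 reproductive bees above all of their sterile sisters and the third between them. In L882 the reproductive brains had 5229.8, 1375 and 4848 CPM and the sterile brains 971, 2858 and 4014 CPM. Here too 2 reproductive bees lay above every sterile sister, although the whole family stood high. In L894 the values were 3316.5, 3852 and 1087 CPM in reproductive and 400.4, 1689 and 747 CPM in sterile brains. Again 2 of the 3 reproductive bees exceeded all sterile sisters. In L888 the reproductive brains had 124, 3677 and 1375 CPM and the sterile brains 2297, 1067 and 1502 CPM. This family had no such order, because its highest and its lowest bee were both labelled reproductive.

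**Figure D1:**
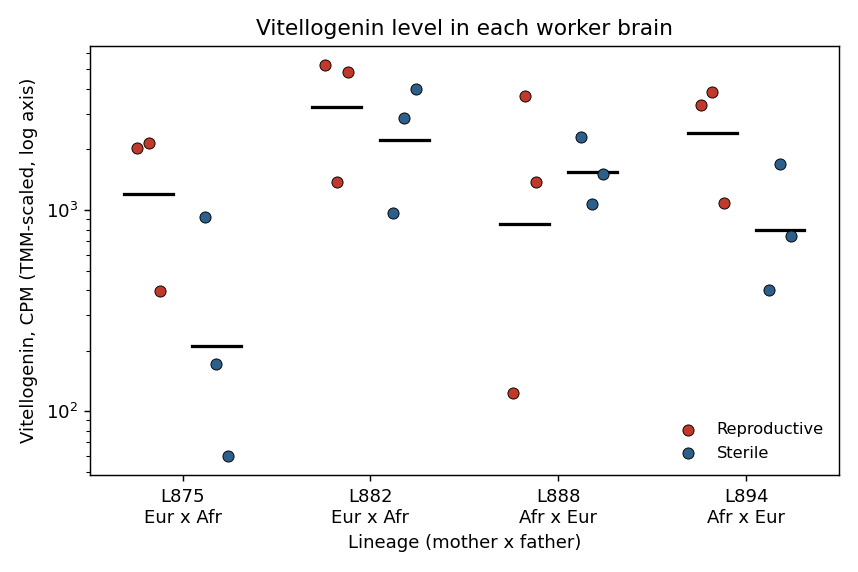
Vitellogenin level of each of the 24 brains in TMM-scaled CPM on a log axis, by lineage and status. Each point is 1 bee and each bar is the geometric mean of 3 sisters; the values run from 60.1 CPM in L875 Sterile 3 to 5229.8 CPM in L882 Reproductive 1, and the statuses overlap in all 4 lineages.

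The first comparison asked whether vitellogenin differs between reproductive and sterile brains. Over all lineages the level was 2456 ± 1699 CPM in reproductive brains (lowest 124, median 2096, highest 5229.8) and 1392 ± 1172 CPM in sterile brains (lowest 60.1, median 1019, highest 4014; SD, n = 12 each). The log2 difference, with lineage taken into account, was 1.04 (SE 0.49) in edgeR's quasi-likelihood test. It did not pass the threshold of 0.05 after adjustment over all genes (unadjusted p = 0.0451, adjusted p = 0.9998). No gene passed in that comparison (0% of 9316), and 216 had an unadjusted p under 0.05. An exact two-sided permutation of status within lineages on log2(CPM + 1) gave a mean difference of 0.95 (p = 0.140, and p = 0.281 adjusted over 2 vitellogenin measures, the level and the paternal share).

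Within families, sisters of both statuses were compared 3 against 3. The log2 difference between reproductive and sterile sisters was 1.99 (SE 0.99) for L875, 0.55 (SE 0.96) for L882, 1.54 (SE 0.98) for L894 and 0.089 (SE 0.955) for L888. None passed in edgeR (adjusted p = 0.9998, 0.916, 0.892 and 0.9999), and neither did any other gene in any of the 4 lineages (0%). Single bees moved these values. Without L875 Sterile 1 the L875 difference was 3.70, and L882 ranged from 0.15 without its Sterile 1 to 0.96 without its Sterile 3. In L888 the sign depended on the scale. The ratio of geometric means was 0.554, which is lower in reproductive bees, while the edgeR difference of 0.089 became -1.11 without Reproductive 2, the bee with 3677 CPM, and -0.14 without Sterile 2. Geometric means were 5.66-fold, 1.46-fold and 3.02-fold higher in reproductive bees in L875, L882 and L894. With 3 bees against 3, an exact permutation test within 1 lineage cannot go below p = 0.1, and the values were 0.2, 0.5, 0.8 and 0.2 in L875, L882, L888 and L894.

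Without L888 the reproductive brains had 2699 ± 1700 CPM and the sterile brains 1315 ± 1329 CPM (SD, n = 9 each). The exact permutation within the other 3 lineages then gave a mean log2 difference of 1.54 (p = 0.0253, adjusted p = 0.0505 over 2 measures), which did not pass after adjustment. Leaving out a lineage in this permutation of the level was not planned, and the adjustment does not cover the sets of lineages tried. The edgeR difference was 1.37 without L888 (adjusted p = 0.9999). Without L875, L882 or L894 in its place the permutation gave 0.43, 1.08 and 0.73 (exact p = 0.532, 0.188 and 0.364). Of the 24 single bees left out in turn, 1 took the unadjusted p under 0.05, namely L888 Reproductive 1, the bee with 124 CPM (1.29, exact permutation p = 0.0162). Neither the cross direction nor the block was shown to change the status effect. The Afr x Eur minus Eur x Afr difference in the status effect was -0.45 (SE 0.96, adjusted p = 0.914). It ranged from -1.28 without L875 Sterile 1 to -0.091 without L894 Sterile 2, and the block B minus block A difference was 0.0052 (SE 0.96, adjusted p = 0.9997). Both edgeR tests called 0% of genes. In block A alone the permutation gave a log2 difference of 0.82 (exact p = 0.485) and in block B alone 1.07 (exact p = 0.11).

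**Figure D2:**
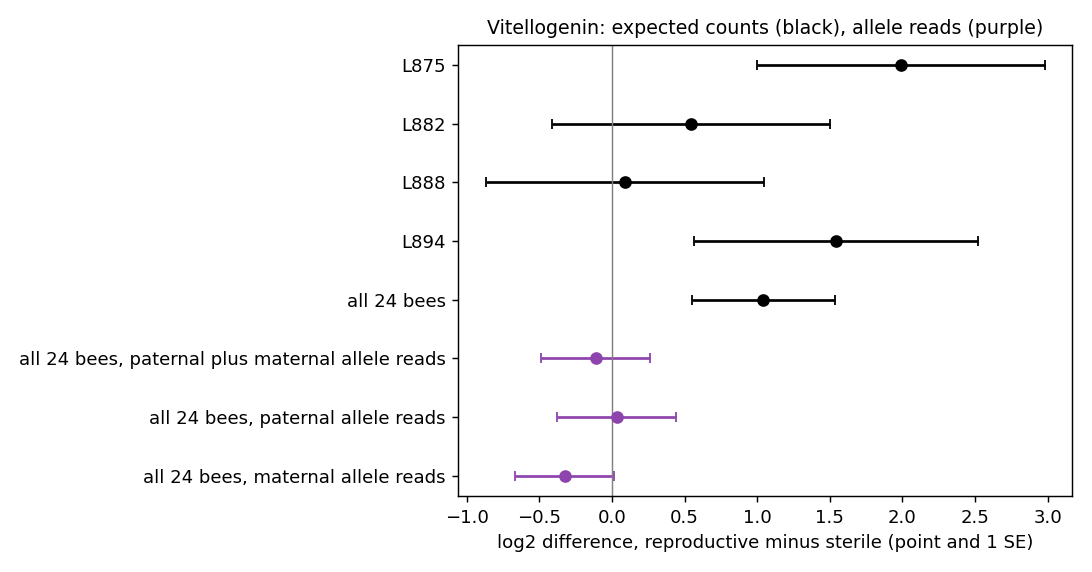
Log2 difference in vitellogenin between reproductive and sterile brains, with 1 SE to each side, from edgeR; black points use expected counts and purple points use allele reads. The pooled difference is 1.04 from expected counts and -0.11 from the allele reads of the same bees.

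The share of the 10 most abundant genes, higher in sterile bees as given above, did not follow vitellogenin closely. Over the 24 bees its correlation with log2 vitellogenin was r = -0.14 (Spearman's rho = -0.32), and r = 0.084 in deviations from the 8 group means. Each pair of values comes from 1 library, so no p is given. With that share as a covariate, the status difference was 0.99 (adjusted p = 0.978). With counts scaled to library totals alone the difference was 1.53 (adjusted p = 0.0965), but the median of all genes then also shifted by 0.47 between the statuses, which leaves vitellogenin 1.06 above that median.

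Family means spanned a wide range, and no difference between families passed the threshold in edgeR. Mean levels were 957 ± 932 CPM in L875, 1674 ± 1208 in L888, 1849 ± 1420 in L894 and 3216 ± 1784 in L882 (SD, n = 6 each). The widest step was between the 2 Eur x Afr families, where L882 exceeded L875 by 2.04 on the log2 scale (SE 0.70, unadjusted p = 0.00845, adjusted p = 0.157 in edgeR, which called 0.869% of genes there). DESeq2 called this difference (2.03, adjusted p = 0.0422), in a fit that called 352 genes against 81 in edgeR. The 2 Afr x Eur families differed by -0.052 (L894 minus L888, SE 0.68, adjusted p = 0.967), in a comparison in which 10.7% of all genes were called. Within block A the Afr x Eur family L888 was higher than L875 by 1.12 (SE 0.68, adjusted p = 0.467; 0.150% of genes called). This was 0.52 without L888 Reproductive 2 and 1.95 without L875 Sterile 1. Within block B the Afr x Eur family L894 lay below L882 by a log2 difference of -0.97 (SE 0.68, adjusted p = 0.546; 0.118% of genes called). The test for any difference among the 4 families gave an adjusted p of 0.193 in edgeR, with 3.17% of genes called. In ascending order, no pair of neighbours (L875 and L888, L888 and L894, L894 and L882) differed past the threshold.

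The allele tables count reads assigned to the drone (paternal) or queen (maternal) copy, and vitellogenin had 869 to 18182 such reads per bee. In 22 bees their number per expected count was below that of the bee's median gene. Over 1957 genes with at least 50 expected counts in every bee, a bee's median gene had 73.7 to 82.7 allele reads per 100 expected counts. Vitellogenin had between 7.38 and 46.4 in 22 bees, and 125 and 245 in L875 Sterile 2 and L875 Sterile 3. The ratio varied widely between genes. In the 22 bees, between 5.83% (L875 Reproductive 2) and 38.1% (L888 Reproductive 1) of the 1957 genes had a lower ratio than vitellogenin. Those 2 bees had more allele reads (1623 and 1398) than expected counts (1298 and 571). This was not particular to vitellogenin, because only 59.7% and 76.2% of the 1957 genes had a lower ratio in these bees. No source used here says how reads that fit both copies were treated.

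This ratio was compared between the statuses after its values were seen, so it is described with no test. Per 100 expected counts, the reproductive bees of L875 had 14.8, 7.38 and 28.9 allele reads and their sterile sisters 36.1, 125 and 245. In L882 they had 13.6, 15.3 and 16.2 against 33.5, 31.4 and 37.5, and in L894 20.4, 20.5 and 17.5 against 37.4, 23.9 and 42.6. All reproductive bees of these 3 families lay below all of their sterile sisters, an order found in 1.74% of the 1957 genes, while 0.0511% had the opposite order. In L888 the groups overlapped, with 46.4, 23.1 and 19.1 in reproductive and 37.3, 19.5 and 30.3 in sterile bees. The mean log2 difference over the 4 lineages was -1.21, with -1.42 in block A, -0.99 in block B and -1.60 without L888. The expected count is the denominator of this ratio, so these values are not independent of the status difference in expected counts.

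**Figure D3:**
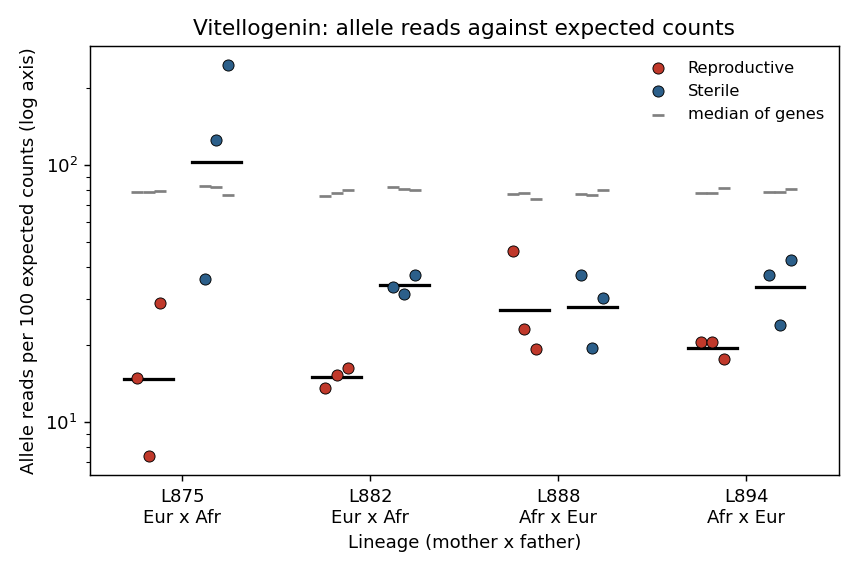
Vitellogenin allele reads (paternal plus maternal) per 100 expected counts in each bee, on a log axis, with geometric means as bars and the median of 1957 genes in the same bee as grey dashes. The medians lie between 73.7 and 82.7, and in L875, L882 and L894 every reproductive bee lies below every sterile sister.

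In the allele tables the status differences lay within 1 SE of 0. Paternal plus maternal reads gave a log2 difference of -0.11 (SE 0.37, adjusted p = 0.9998 in edgeR, 0.926% of genes called). The paternal reads alone gave 0.034 (SE 0.41, adjusted p = 0.998; 0.995% of genes called) and the maternal reads alone -0.33 (SE 0.34, adjusted p = 0.999; 0.959% of genes called). The expected counts, limited to genes present in both allele tables, still gave 1.05 (SE 0.49). The tables nevertheless ranked the bees alike, with r = 0.82 and rho = 0.85 over 24 bees between log2 CPM and log2 allele CPM (allele reads scaled to all allele reads of the bee). Allele CPM spanned a 22.6-fold range, from 105 in L888 Reproductive 1 to 2389 in L882 Sterile 3.

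The second comparison asked whether the father's or the mother's copy of vitellogenin gave more reads. The paternal share was above 50% in 19 of 24 bees and ran from 46.5% to 90.4%. In L875 it was 57.8%, 53.8% and 49.0% in reproductive and 49.1%, 58.0% and 48.5% in sterile bees, close to an even split. In L882 it was 65.3%, 60.03% and 63.5% in reproductive and 61.5%, 47.9% and 46.5% in sterile bees. In L894 it was 73.7%, 68.7% and 56.9% in reproductive and 52.8%, 65.7% and 62.8% in sterile bees. The largest shares were in L888, with 62.0%, 88.4% and 59.7% in reproductive and 90.4%, 84.8% and 58.2% in sterile bees. Wilson 95% intervals for these shares were 1.02 to 6.44 points wide. They cover counting error only, and reads counted for both copies would draw a share towards 50%.

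Divided at the widest gap between neighbouring shares, the sisters of L888 formed sets that cut across status. This division was not planned, was drawn from the shares it describes, and can be made in any family. Reproductive 2, Sterile 1 and Sterile 2 had 84.8% to 90.4% paternal reads and the other 3 sisters 58.2% to 62.0%, which leaves a gap of 22.7 points. In allele CPM, the maternal copy gave 201, 201 and 58.4 in the high set and the paternal copy 1535, 1894 and 325. In the other 3 sisters the maternal copy gave 40.1, 282 and 373 and the paternal copy 65.4, 418 and 521. A gap at least as wide was found in 8.63% of 1611 genes with at least 200 allele reads in every sister, where the median gap was 4.85 points. In L882, Sterile 2 and Sterile 3 stood 12.1 points below the other 4 bees, a gap reached by 11.8% of 1572 genes. In L875 and L894 the widest gaps were 4.75 and 5.90 points, reached by 30% of 1351 and 35.9% of 1500 genes.

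**Figure D4:**
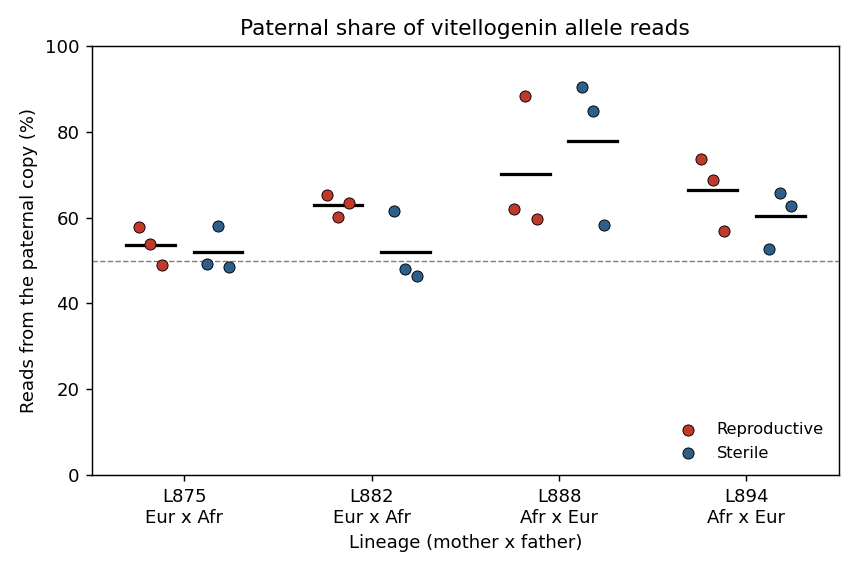
Percentage of vitellogenin allele reads from the paternal copy in each bee, by lineage and status, with the mean of 3 sisters as a bar and 50% as a dashed line. L888 holds 3 bees between 84.8% and 90.4% and 3 between 58.2% and 62.0%, with both statuses in each set.

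Over the 12 reproductive bees the paternal copy gave more reads. The mean share was 63.2% ± 10.3 (SD, n = 12), and the log2 ratio of paternal to maternal reads was 0.84 (SE 0.20, adjusted p = 0.0247 in edgeR, 10% of 3475 genes called). The share was above 50% in 11 of these bees. In sterile bees the mean share was 60.5% ± 14.2 (SD, n = 12) with a log2 ratio of 0.71 (SE 0.25), which did not pass (adjusted p = 0.101, 9.37% of 3480 genes called). The share was above 50% in 8 of them. Without L888 the log2 ratio in sterile bees was 0.37 (adjusted p = 0.107 in edgeR). The median log2 ratio of all genes was 0.16 in reproductive and 0.17 in sterile bees.

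The call in reproductive bees was made with sisters treated as separate replicates, and neither fit by family kept it. When limma took lineage as random the log2 ratio was 0.85 (unadjusted p = 0.00832, adjusted p = 0.112). That fit called 79 genes, against 348 in edgeR. On 4 lineage means limma gave 0.85 (unadjusted p = 0.0121, adjusted p = 0.297) and called 0 genes, so the loss there is not particular to vitellogenin. Neither of these limma fits was planned. Without L888 the call was kept (0.75, adjusted p = 0.0145 in edgeR, 387 genes called). It was lost without L882 Reproductive 1, 2 or 3 (0.79, 0.83 and 0.80, adjusted p = 0.0522, 0.0516 and 0.0541 in edgeR). Those fits called 234, 212 and 222 genes. It was also lost without lineage L875, L882 or L894 (adjusted p = 0.0607, 0.205 and 0.0619), with 304, 115 and 390 genes called. In block A alone it was lost too (adjusted p = 0.283, 253 genes called).

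By ancestry, the fitted ratio of African to European reads was below even, without passing the threshold. The log2 ratio was -0.35 (SE 0.20, adjusted p = 0.420 in edgeR, 2.94% of genes called) in reproductive bees. In sterile bees it was -0.60 (SE 0.25, adjusted p = 0.278; 2.27% of genes called). The sterile value was -0.26 without L888 and -0.25 in block B alone. The reproductive value was -0.19 without L888 Reproductive 2, -0.21 without L875 and -0.12 in block B alone. The paternal share averaged 68.7% ± 12.8 with a European father and 55.1% ± 6.74 with an African father (SD, n = 12 each, from 2 families each).

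The kinship question, named in the series title, is whether the parental ratio goes with worker reproduction. For vitellogenin the log2 paternal to maternal ratio in reproductive bees minus that in sterile bees was 0.13 (SE 0.33, adjusted p = 1 in edgeR, with 0% of 3414 genes called). The share itself was 2.72 points higher in reproductive bees in the exact permutation within lineages (p = 0.509, adjusted p = 0.509 over 2 measures). Without L888 it was 6.22 points higher, with 61.0% ± 7.64 against 54.8% ± 7.35 (SD, n = 9 each; exact permutation p = 0.0575). Family by family, reproductive minus sterile came to 1.69 points for L875, 10.95 points for L882, -7.75 points for L888 and 6.0 points for L894, and the groups overlapped in all 4. The block A families gave -3.03 points (exact permutation p = 0.79), and those of block B gave 8.48 points (exact permutation p = 0.065).

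**Figure D5:**
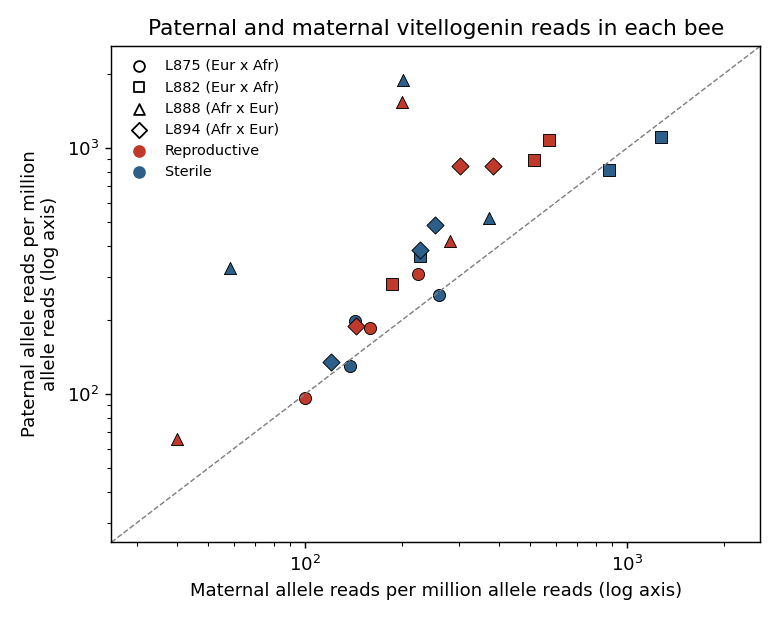
Paternal against maternal vitellogenin reads in each bee, in allele CPM, both on log axes, with the dashed line marking equal numbers. In 19 of 24 bees the paternal reads exceed the maternal reads, and 3 bees of L888 with 58.4 to 201 maternal CPM lie farthest above it.

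Genes with a pattern like vitellogenin were sought over the 24 bees, in deviations of log2 CPM from the 8 group means. Of 9315 genes, 23 had r above 0.7 and 24 had r below -0.7. The highest were GB43006 (r = 0.88, rho = 0.79) and GB53755 (r = 0.86, rho = 0.82). GB43006 ran from 3.23 to 194 CPM and GB53755 from 4.53 to 113 CPM. The lowest were GB46757 (r = -0.82, rho = -0.75), at 37.97 to 89.9 CPM, and GB52718 (r = -0.79, rho = -0.64), at 16.4 to 51.9 CPM. Without the 2 bees farthest from the median in vitellogenin, L888 Reproductive 1 and L875 Sterile 3, the 4 values were 0.82, 0.84, -0.73 and -0.67. These genes have no name in the tables, the points share libraries and scaling factors, and no p is given.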

How the data were processed

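The authors sequenced polyA RNA of single brains, with paired ends, on 2 lanes. The expression table holds expected counts as deposited by the authors, with totals that differ between bees and 87.3% of values whole. The allele tables hold whole read counts for the drone and queen copy, per the file headers. HISAT2 and limma are listed, with no role, in the submitters' processing notes. No source used here gives the counting tool, the build or the allele rule.

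Expected counts were rounded. The fits across all genes used edgeR 4.0.16 in R 4.3.3 (filterByExpr, TMM, quasi-likelihood), with lineage and status, or 1 mean per group. The allele fit had a term for each bee, for the parent and for the ancestry (African or European) of the copy, for genes with at least 20 reads in each lineage of a status. P-values were adjusted by Benjamini-Hochberg over all genes tested. Each SE is the absolute log2 difference divided by the square root of the F statistic of its edgeR test. A ratio, share or log2 value per bee came from the deposited counts. Alternatives used limma 3.58.1 and DESeq2 1.42.0. The fits were tested on simulated data in which all genes had the same spread and families did not differ. Vitellogenin had a higher dispersion (spread beyond counting error) than 98.2% of genes in the expected counts. Those data therefore do not show how the fits serve this gene. All 24 allele columns correlated best with the expression column of the same bee, over 1957 genes. These correlations were moderate (r = 0.34 to 0.66, in deviations of log2 CPM from each gene's mean).

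The gene was set by identifier alone, but it, the lists and the tests were chosen with earlier results of these data known. Genes alike were named by rule, the 2 highest and 2 lowest in r. Genes of the vitellogenin and juvenile hormone pathway and tissue markers were listed but not tested, since no identifier matched. P-values measure the spread between single bees, and sisters share parents.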

Additional observations from a re-analysis of the deposited data

How the results depend on the processing

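Of 590 recomputed values, 542 kept direction and side of the threshold, 29 changed sign, 10 came to pass and 9 ceased to pass, and no cause was tested. The threshold of 0.05 was on adjusted p in the fits across genes. It was on unadjusted p in the permutations and in the tests on summed reads. The values include refits that left out a bee of a lineage outside the comparison, which could change little. They also include the exchange of statuses in L888, which by construction left status in the other lineages and the family differences unchanged. For status, allele reads in place of expected counts (chosen after seeing the data) gave -0.11. In L888 limma voom gave -0.84. Exchanging its statuses gave -0.089, a change of sign that the exchange itself fixes in advance. The exact permutation had an unadjusted p under 0.05 with library totals (1.41), without L888 (1.54) and with L888 exchanged (1.37), and not without L875 (0.43), L882 (1.08) or L894 (0.73). Neither the exchange nor leaving out a lineage was planned for that permutation. Between families, limma voom gave 0.26 for L894 minus L888 and DESeq2 2.03 for L882 minus L875. The paternal log2 ratio in reproductive bees ceased to pass in block A alone (0.79), without L875, L882 or L894 (0.97, 0.70 and 0.93) and in limma with lineage as a random effect or on lineage means (0.85 and 0.85); in sterile bees it passed without L894 (1.10). Tests on summed reads, which leave out the spread between bees, passed for the paternal ratio in sterile bees (0.64), the African ratio (-0.61 in reproductive, -0.71 in sterile bees) and the status difference in ratio (0.53). That difference was -0.31 in block A, -0.011 without L882 and -0.17 without L894; as a share it was -3.03 points in block A and -0.0196 without L882. Leaving out single bees gave 1.48 to 3.70 for status in L875, 0.15 to 0.96 in L882, 1.21 to 2.26 in L894, -1.28 to -0.091 for status by direction, -1.11 to 0.64 for status in L888, -0.85 to 0.61 for status by block, -0.41 to 0.55 for L894 minus L888, 0.67 to 0.92 for the paternal ratio in reproductive bees, -0.034 to 0.31 for its difference by status and 0.68 to 1.29 for the status permutation. No paired analysis was possible because the labels give each bee its own number and no number shared between groups.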

Other observations

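Other genes had the same order of allele reads per expected count between the statuses as vitellogenin. Of 1957 genes with at least 50 expected counts in every bee, 34 (1.74%), vitellogenin among them, were lower in all 3 reproductive bees than in all 3 sterile sisters in each of L875, L882 and L894. The opposite order in all 3 lineages was seen in 1 gene (0.0511%). Within single lineages the counts were nearer to each other, with 92 lower and 63 higher in L875, 150 and 118 in L882, and 126 and 135 in L894. This count was chosen after its values were seen, and its cause was not tested.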
